A study of Mus musculus with 14 samples.

Results

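Lung tumor nodules of mice given mobocertinib together with T-DM1 were compared with nodules of mice given mobocertinib alone, which asks what the antibody conjugate adds to the kinase inhibitor. The 3 libraries labelled combination and the 3 labelled mobocertinib were taken from the count table by their labels, 6 of the 14 libraries in the series. All 14 came from snap-frozen nodules, as total RNA, of C57BL/6 mice whose genotype is given as HER2 Exon20YVMA, an in-frame insertion in the kinase domain of the receptor HER2. The other groups were vehicle (n = 2), T-DM1 alone (n = 3) and nodules that had acquired resistance to mobocertinib given alone (n = 3). Treatment was long term, and the labels give no dose, schedule, age or sex, nor the promoter or Cre line that drives the allele. Nothing in them ties a library to an animal of its own, so a p-value here measures only the sample-to-sample spread. Whether that is a spread between animals is not known.

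Mobocertinib is a tyrosine kinase inhibitor that binds EGFR and HER2 with exon 20 insertions and so lowers signaling through ERK and PI3K. T-DM1 is the HER2 antibody trastuzumab joined to DM1, a maytansinoid. The conjugate is taken up with its receptor and broken down in lysosomes, and the released DM1 binds tubulin, blocks microtubule growth and arrests cells in mitosis. The antibody part can also be recognized by Fc receptors of immune cells.

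Library totals were 20332008 to 24817483 counts in the mobocertinib libraries and 22652221 to 24043238 in the combination libraries. All 6 libraries held the epithelial and lung lineage transcripts of the labelled tissue, with Nkx2-1 at 141 to 224 CPM and Epcam at 168 to 435 CPM (counts scaled to library size). Ribosomal protein genes took 3.79% to 7.79% of counts in these 6 libraries, and 20.7% and 21.6% in the vehicle libraries. The scaling factors were 0.988 to 1.17 in the 6 and 0.677 and 0.542 in vehicle. How this affects the vehicle levels given below was not tested. Pearson's r between the log2 CPM of a pair of libraries, taken across genes, was 0.947 to 0.964 within a group and 0.949 to 0.974 between the groups, so libraries were as alike across the groups as within them. Between libraries of a group, chi-square per degree of freedom over genes was 87.9 to 233, so their counts differed by more than counting noise. Genes are not independent replicates, and these values describe the libraries only. In bulk tissue, fewer cells of a type and less RNA per cell cannot be told apart.

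No gene differed between the combination and mobocertinib at an adjusted p below 0.05. In edgeR's quasi-likelihood test, 0 of 17933 genes that passed a filter on low counts were called (0%), and the lowest adjusted p was 1. At an unadjusted p below 0.05 there were 262 genes (1.46%), 111 with a higher and 151 with a lower mean in the combination. DESeq2, run without that filter on low counts, called 1 gene, AA465934, and had 405 of 30298 genes at an unadjusted p below 0.05. limma-voom called 0 and had 234 of 17933. Of the genes tested, 3.49% had all 3 combination libraries above all 3 mobocertinib libraries, and 3.21% had all 3 below.

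The size of difference that could be left undetected varied with the gene. Standard errors and intervals come from a fit to all 14 libraries, so they also reflect the spread in the groups not compared. The median standard error of a log2 fold change was 0.43. For 7668 genes (42.8%), the 95% interval of the log2 fold change lay within 2-fold in either direction, so for these genes a larger difference lay outside the interval. For the others it did not, and a p that misses the threshold does not show that the groups were alike. The median log2 fold change over all genes was −0.01, and 47.7% of genes were above 0. A log2 fold change here is always combination minus mobocertinib with its standard error, and levels of single genes are normalized CPM. Every tested gene named below had an adjusted p of 1 in edgeR.

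**Figure D1:**
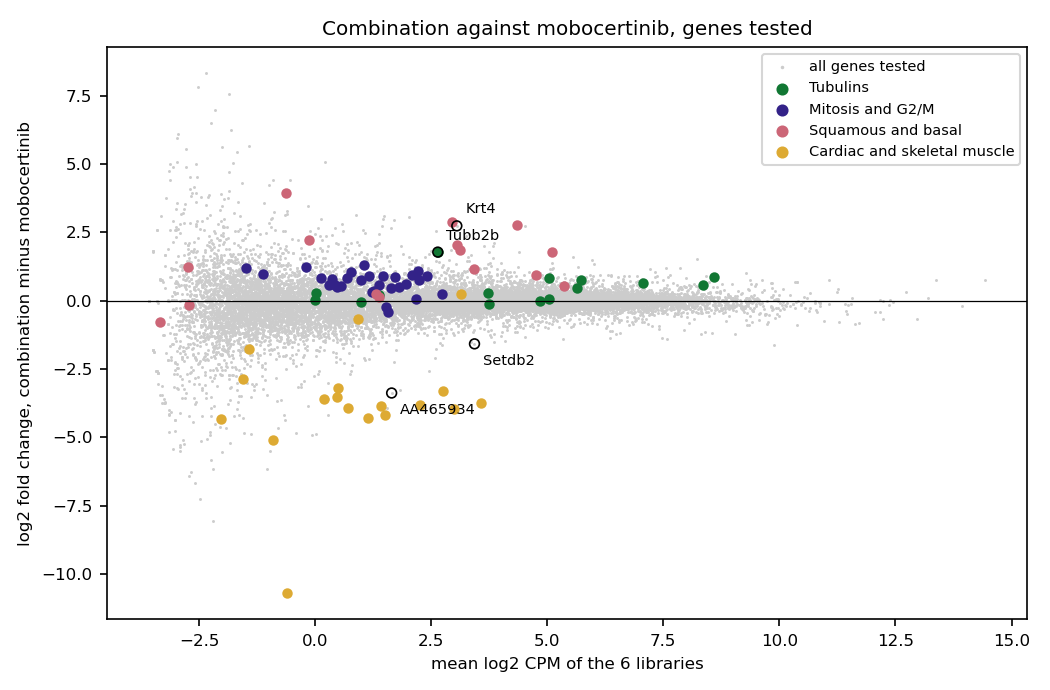
Log2 fold change (combination minus mobocertinib) against mean log2 CPM of the 6 libraries for the 17933 genes tested, with 4 gene lists colored and 4 genes circled. Tubulin genes lie at or above 0 apart from small negative values, while 17 of 18 muscle genes lie below 0, and no gene passed the edgeR test.

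Of 54 gene lists, the tubulins separated the 2 groups of libraries by the widest margin, although no tubulin passed the test. Alpha- and beta-tubulins are the subunits of microtubules and the target of DM1. Cells adjust tubulin messenger RNA to the amount of free tubulin: the first amino acids of a nascent tubulin chain mark its messenger RNA for decay when free subunits build up. The first 4 codons, which encode that recognized start, are printed in capitals within the first 30 coding bases (GENCODE M21 transcripts, GRCm38 build, the build also called mm10). They are shown because the members described next differ there at only a few bases.

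Tubb2b: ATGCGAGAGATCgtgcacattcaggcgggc
Tubb2a: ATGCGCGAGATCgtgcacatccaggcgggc
Tubb4b: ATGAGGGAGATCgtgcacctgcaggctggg
Tubb5: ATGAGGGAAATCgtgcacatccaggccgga
Tubb3: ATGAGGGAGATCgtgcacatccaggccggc
Tuba1b: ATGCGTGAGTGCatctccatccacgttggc
Tuba1c: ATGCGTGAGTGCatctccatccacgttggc

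Over these 12 bases, Tubb4b and Tubb3 differed from Tubb5 at 1 base, Tubb2a and Tubb2b at 3, and the alpha-tubulins Tuba1b and Tuba1c at 5. Tubb4b and Tubb3 had the same capitals as each other, and so had Tuba1b and Tuba1c.

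Of the 15 tubulins tested, 12 had a log2 fold change above 0 and 6 had all combination libraries above all mobocertinib libraries, against 3.49% of all genes. None passed the test, and 4 were at an unadjusted p below 0.05, against 1.46% of all genes. The list's median log2 fold change was 0.29 beside −0.01 for all genes. That median ran from 0.29 without combination library 3 to 0.51 without combination library 1. Averaged over the list, the mean log2 deviation of the members from their own mean over the 6 libraries was −0.19, −0.34 and −0.15 in the mobocertinib libraries. It was 0.23, 0.06 and 0.40 in the combination libraries, so the groups did not overlap. In the vehicle libraries it was −0.14 and 0.10, the latter within the combination range. Of 54 gene lists, 6 had a level in every combination library above that in every mobocertinib library and 0 had one below. The gap was 0.21 for the tubulins and 0.03 to 0.08 for the immediate early genes, immune checkpoints, T cell genes, chemokines and EMT genes. In summed CPM, the T cell genes and the chemokines overlapped between the groups. With 3 libraries in each group some lists separate by chance, and how many was not tested.

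Tubb2b, a beta-tubulin best known from neurons (chr13:34126748-34130466, minus strand), was at 3.29, 4.17 and 2.63 CPM in the mobocertinib libraries. It was at 11.4, 9.29 and 14 CPM in the combination libraries, and every combination library was more than 2-fold above every mobocertinib library. The log2 fold change was 1.78 ± 0.404 (95% interval 0.91 to 2.65), with an unadjusted edgeR p of 0.000723. It ranged from 1.60 to 1.95 when each library was left out in turn. T-DM1 alone gave 11.5, 14.2 and 12.6 CPM and vehicle 6.36 and 5.50 CPM. Tubb2b and its neighbor Tubb2a had coding sequences 96.5% identical, and 36.9% of the 50-base stretches of Tubb2b transcripts also occur in other genes, so its reads could be split in the counting.

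Tubb2a, a close relative of Tubb2b, was at 29.3, 20.0 and 25.0 CPM with mobocertinib and at 41.0, 39.9 and 49.8 CPM with the combination. The combination libraries were all higher, by 0.82 ± 0.310 on the log2 scale (95% interval 0.15 to 1.49). Tubb4b, a widely expressed beta-tubulin (chr2:25222160-25224702, minus strand), was at 422, 213 and 238 CPM with mobocertinib and at 538, 588 and 479 CPM with the combination. Mobocertinib library 1 was the highest of its group and lay nearest the combination. The log2 fold change of Tubb4b was 0.88 ± 0.291 (95% interval 0.25 to 1.51). Pseudogene copies share 41.3% of its 50-base stretches.

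Tubb5, the main beta-tubulin of dividing cells (chr17:35833921-35838306, minus strand), was at 301, 284 and 220 CPM with mobocertinib and at 384, 365 and 446 CPM with the combination. The resulting log2 fold change was 0.57 ± 0.213 (95% interval 0.11 to 1.03), again with no overlap. Mean Tubb5 was 268 CPM with mobocertinib, 398 CPM with the combination and 369 CPM with vehicle. Only 0.0892% of its 50-base stretches occur in another gene, so the share that could be miscounted was smallest for Tubb5 among these 4 beta-tubulins. Per transcript length, in the deposited TPM (a share of all transcripts), Tubb4b was at 358 ± 91.3 TPM with mobocertinib and 713 ± 49.4 TPM with the combination (SD, n = 3). Tubb5 was at 137 ± 12.8 and 217 ± 28.9 TPM, and Tubb2b at 3.83 ± 0.80 and 13.7 ± 2.80 TPM. The order of levels was thus Tubb4b, Tubb5, Tubb2a and Tubb2b in both groups, with Tubb2a at 36.3 ± 5.88 and 68.0 ± 10.7 TPM.

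The alpha-tubulins Tuba1c and Tuba1b also had all combination libraries above, at log2 fold changes of 0.77 ± 0.380 and 0.46 ± 0.262, both with a 95% interval that held 0. They share 52.7% and 75.1% of their 50-base stretches with other genes. Another gene also overlaps 27.4% of the exon bases of Tuba1b. Tuba4a was at 162, 72.5 and 96.1 CPM against 172, 159 and 185 CPM, but 37.3% of its exon bases lie over a gene on the other strand and the labels do not say whether the counting used strand. In the remaining members the groups overlapped. Tuba1a was at −0.00 ± 0.388, the gamma-tubulins Tubg1 and Tubg2, which seed microtubules, at 0.05 ± 0.231 and −0.04 ± 0.528, and Tubb6 at 0.29 ± 0.349. Tubb3, a beta-tubulin linked to drug resistance, was at 0.473 to 1.42 CPM in the 6 libraries, with a log2 fold change of 0.02 ± 0.627 whose sign was negative with upper-quartile or median-ratio scaling.

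Genes for proteins that act on microtubules had values on both sides of 0. Of 17 regulators tested, 8 were above 0 and 9 below, 0 were called, and the median was −0.06. Stmn1, or stathmin, which binds free tubulin and promotes microtubule loss, was at 25.6, 21.7 and 21.2 CPM with mobocertinib and at 25.1, 25.9 and 18.7 CPM with the combination. The log2 fold change was 0.03 ± 0.231, with an interval of −0.47 to 0.53 that lies within 2-fold. For 11 of the 17 regulators the interval lay within 2-fold.

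**Figure D2:**
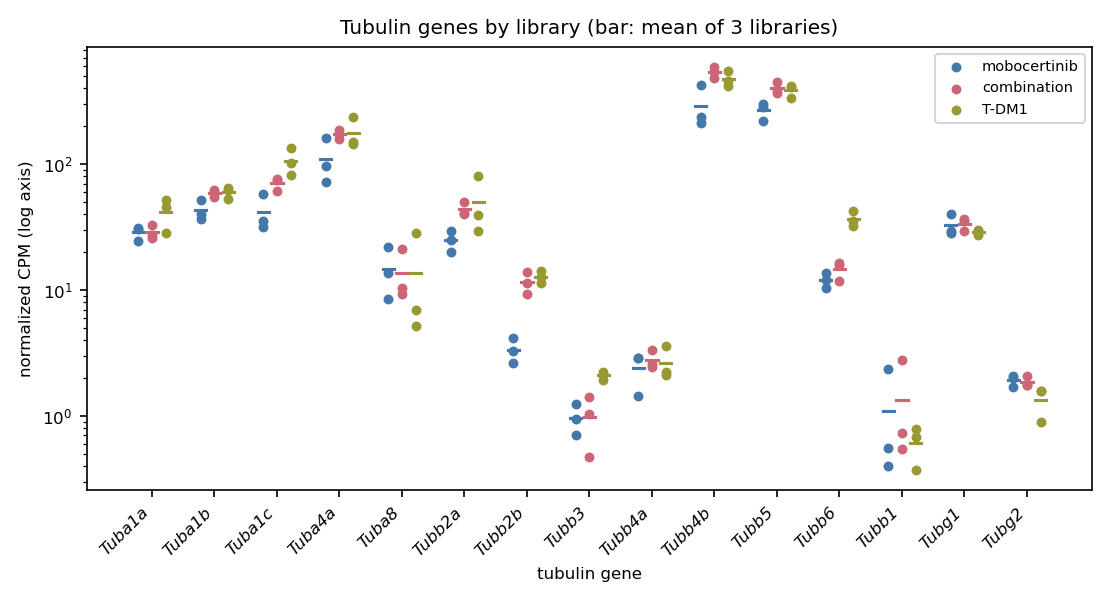
Normalized CPM (log axis) of 15 tubulin genes in the 3 mobocertinib, 3 combination and 3 T-DM1 libraries, each dot a library and each bar a group mean. In Tubb2a, Tubb2b, Tubb4b, Tubb5, Tuba1b and Tuba1c the 3 combination libraries lie above the 3 mobocertinib libraries.

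Transcript levels of Erbb2, the mouse gene for HER2, overlapped between the groups. The genotype label does not say whether the engineered allele is of mouse or human sequence. Whether the counts of Erbb2 include its transcripts is therefore not known. Erbb2 was at 379, 475 and 277 CPM with mobocertinib and at 651, 446 and 306 CPM with the combination. The log2 fold change of 0.31 ± 0.406 (95% interval −0.57 to 1.19) was −0.00 without combination library 1. Egfr, a receptor that pairs with HER2, was at 17.0, 10.6 and 13.4 CPM against 28.3, 15.1 and 31.9 CPM, a log2 fold change of 0.88 ± 0.534. Erbb3, the partner of HER2 that recruits PI3K, was at 189, 342 and 239 CPM against 265, 190 and 299 CPM, a log2 fold change of −0.03 ± 0.429 that was 0.07 in TPM.

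Ligands of the ERBB receptors had a median log2 fold change of 0.42 over 10 tested members, 7 of them above 0 and 0 called. The other 3 were below 0, the lowest at −1.23. Over the list, 2 ligands had all combination libraries above and 1 had all below, against 3.49% and 3.21% of all genes. Ereg, or epiregulin, was at 13.3, 10.8 and 6.22 CPM with mobocertinib and at 29.3, 32.6 and 18.2 CPM with the combination, a log2 fold change of 1.40 ± 0.610 (95% interval 0.08 to 2.72). T-DM1 alone gave 86.1, 62.7 and 132 CPM of Ereg. Areg, or amphiregulin, was at 22.5, 34.1 and 11.2 CPM against 41.8, 51.0 and 36.4 CPM, also without overlap, at 0.93 ± 0.606. Nrg1, the ligand of ERBB3, was at 14.1, 8.34 and 7.25 CPM against 16.3, 15.4 and 13.0 CPM, with overlap. The 10 negative regulators of ERBB receptors had a median of 0.02, with intervals within 2-fold for 7.

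Genes driven by ERK had a median log2 fold change of 0.32, with 14 of 19 above 0 and 0 called. At an unadjusted p below 0.05 there were 2, against 1.46% of all genes. Dusp6, a phosphatase that shuts off ERK and a common readout of its activity (chr10:99263231-99267489, plus strand), was at 34.3, 34.1 and 47.1 CPM with mobocertinib and at 54.6, 48.2 and 41.6 CPM with the combination. Mobocertinib library 3 lay within the combination range, and the log2 fold change was 0.32 ± 0.246 (95% interval −0.21 to 0.85). Dusp6 was at 180, 141 and 162 CPM with T-DM1 alone and at 217 and 232 CPM with vehicle, so all 6 compared libraries lay below all 5 of these. Dusp5, a nuclear ERK phosphatase, was at 4.73, 6.94 and 4.16 CPM against 10.7, 9.53 and 7.59 CPM, without overlap, at 0.81 ± 0.290.

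Spred2, an inhibitor of RAS signaling, was at 9.36, 11.2 and 12.9 CPM against 26.7, 12.1 and 17.6 CPM, a log2 fold change of 0.75 ± 0.289 that was 0.41 without combination library 1. Etv4 and Etv5, transcription factors induced by ERK, were at 0.77 ± 0.614 and −0.33 ± 0.765. Etv5 ranged more widely within mobocertinib (8.82, 34.5 and 41.0 CPM) than between the groups, and its sign was positive in TPM. Ccnd1, or cyclin D1, was at 241, 172 and 179 CPM against 410, 217 and 413 CPM, at 0.82 ± 0.432. A neighboring gene on the other strand covers 23.4% of the exon bases of Ccnd1. Combination library 2 lay within or near the mobocertinib range for Spred2, Etv4 and Ccnd1, while libraries 1 and 3 lay above it.

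Of 17 immediate early genes, transcription factors switched on quickly by signals or by handling of tissue, 12 were above 0 and 0 were called, with a median of 0.17 that ran from 0.11 without combination library 2 to 0.30 without combination library 3. Egr1 was at 34.7, 24.6 and 15.1 CPM against 58.9, 84.3 and 27.6 CPM, at 1.2 ± 0.467. Myc, which drives growth, was at 15, 15.5 and 7.43 CPM against 26.6, 16.1 and 20.4 CPM, at 0.73 ± 0.444, and 0.45 without mobocertinib library 3. The 24 genes of MYC and ribosome building had a median of 0.19, with 20 above 0.

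Targets of FOXO factors, which PI3K and AKT keep out of the nucleus, had a median of −0.02 over 18 members, with intervals within 2-fold for 13. Pdk4, a kinase that turns down glucose oxidation and a FOXO target, was at 44.3, 46.0 and 73.0 CPM with mobocertinib and at 23.5, 25.8 and 33.9 CPM with the combination. The combination libraries of Pdk4 were all lower, at −0.97 ± 0.446 (95% interval −1.94 to −0.01). Bcl6, a repressor on the same list, was at 61.1, 44.9 and 52.6 CPM against 63.7, 53.7 and 49.5 CPM, with an interval of −0.46 to 0.61 within 2-fold. The 22 receptor kinases and ligands that can stand in for ERBB signaling had a median of −0.08, which ran from −0.35 without mobocertinib library 1 to 0.25 without mobocertinib library 3.

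Genes of mitosis tended to have higher means in the combination, with large spread among the mobocertinib libraries. Of 30 such genes, 28 had a log2 fold change above 0, 0 were called, 1 was at an unadjusted p below 0.05 (1.46% of all genes) and 2 had all combination libraries above (3.49% of all genes). The median was 0.75, and it ran from 0.45 without mobocertinib library 1 to 1.24 without mobocertinib library 2. The list level was −0.90, 0.44 and −0.65 in the mobocertinib libraries and 0.76, 0.13 and 0.21 in the combination libraries. Mobocertinib library 2 thus lay among the combination libraries.

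Mki67, which codes for the proliferation antigen Ki-67, was at 1.54, 6.97 and 2.24 CPM with mobocertinib and at 11.1, 5.32 and 6.34 CPM with the combination. Its log2 fold change of 1.07 ± 0.593 (95% interval −0.21 to 2.36) was 1.97 without mobocertinib library 2. Top2a, the topoisomerase that untangles chromosomes, was at 2.39, 7.12 and 2.88 CPM against 10.4, 5.95 and 6.71 CPM, at 0.89 ± 0.547. Cdk1, the mitotic cyclin-dependent kinase, was at 0.61 ± 0.481, and Cdc20, which switches on chromosome separation, at 0.48 ± 0.333. Leaving out 1 library took Cdk1 from 0.31 to 1.44 and Cdc20 from 0.27 to 0.80, in both cases without mobocertinib library 3 and without mobocertinib library 2, and Top2a to 1.52 without the latter.

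Birc5, or survivin, was at 0.548, 2.66 and 0.960 CPM with mobocertinib and at 3.53, 3.31 and 3.50 CPM with the combination, without overlap, at 1.30 ± 0.614. With T-DM1 alone, levels lay above all 6 of these libraries, with Mki67 at 38.6, 20.8 and 23.9 CPM and Cdc20 at 18.2, 17.3 and 14.9 CPM. Cdc20 was at 2.29, 3.76 and 1.88 CPM with mobocertinib and at 4.42, 2.91 and 3.72 CPM with the combination, so all 6 lay below every T-DM1 library. The 95% interval of Cdc20, −0.24 to 1.2, held both no difference and a difference above 2-fold.

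Replication genes had a median of 0.14 over 31 members, 21 above 0 and 0 called, with intervals within 2-fold for 14. It was 0.34 without mobocertinib library 2 and 0.04 without mobocertinib library 3. Mcm2, a subunit of the replicative helicase, was at 9.61, 12.4 and 9.38 CPM against 19.6, 14.9 and 17.2 CPM, without overlap, at 0.72 ± 0.319. Targets of p53 had a median of −0.19 with 13 of 20 below 0, and of −0.01 without mobocertinib library 1. Cdkn1a, the p21 inhibitor of cyclin-dependent kinases, was at 523, 384 and 218 CPM with mobocertinib and at 279, 327 and 258 CPM with the combination. The resulting log2 fold change was −0.38 ± 0.304, and −0.06 without that library. BCL2 family and caspase genes had a median of −0.04 over 21 members.

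**Figure D3:**
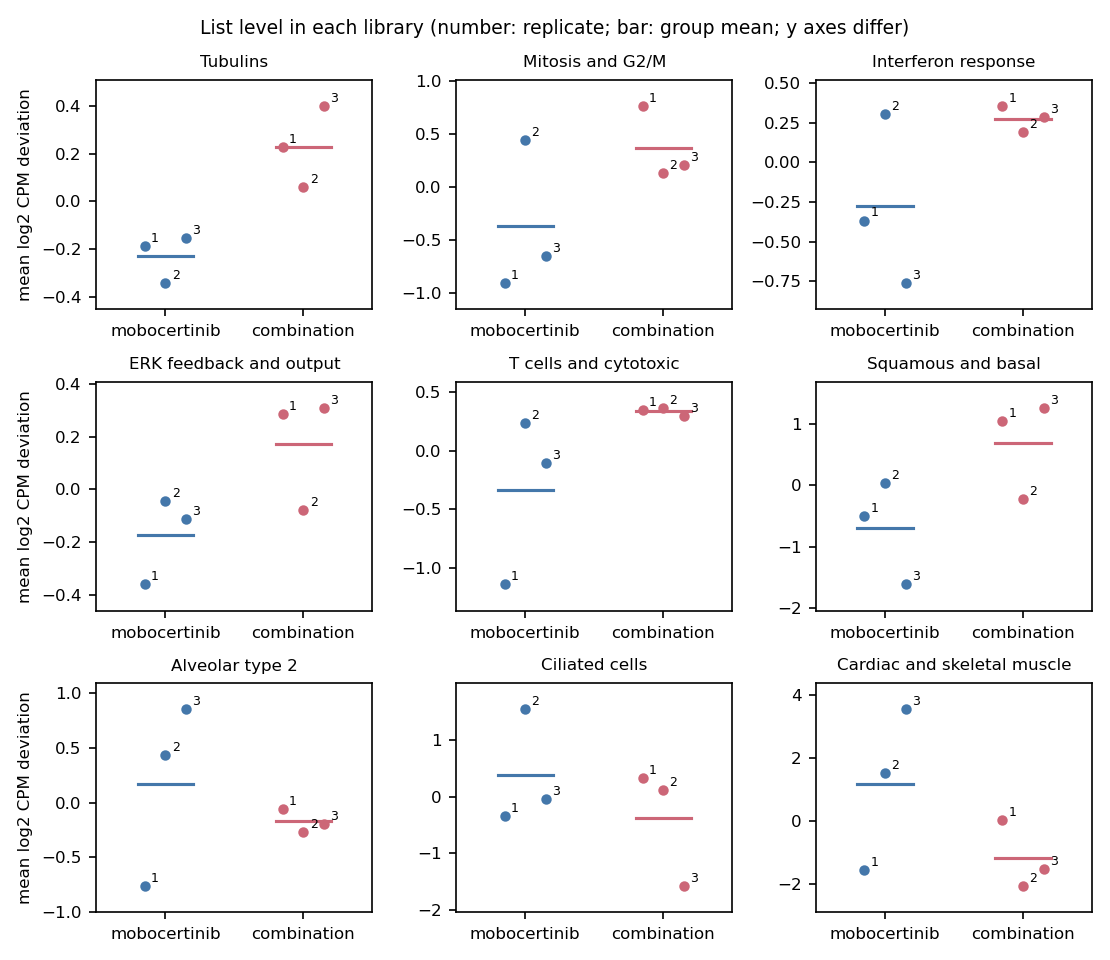
Level of 9 gene lists in each library, as the mean log2 deviation of the members from their mean over the 6 libraries (number: library; bar: group mean; y axes differ). The tubulin and T cell lists do not overlap between the groups, mobocertinib library 2 lies with the combination for mitosis and interferon genes, and mobocertinib library 3 is highest for muscle genes.

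Genes on the path of an antibody conjugate lay on both sides of 0. Of 27 lysosomal genes, 14 were above 0 and 13 below, the median was 0.00 and the interval lay within 2-fold for 21. Npc2, a cholesterol carrier, and Atp6v0d1, a proton pump subunit, had all combination libraries below (−0.42 and −0.12). These were 2 of the 27, against 3.21% of all genes, and 1 had all combination libraries above, against 3.49%. Slc46a3, a lysosomal transporter that lets maytansinoid products into the cytosol, was at 35.4, 27.1 and 34.7 CPM against 37.3, 52.9 and 20.0 CPM. Its log2 fold change of 0.18 ± 0.293 (95% interval −0.45 to 0.81) was −0.18 without combination library 2. The efflux pump genes Abcb1a and Abcb1b, which code for P-glycoprotein in mice, were at 0.07 ± 0.361 and 0.32 ± 0.497, and the sign of Abcb1b was negative in TPM. Another gene overlaps 10.1% of the exon bases of Abcb1a. The median of the 9 tested efflux transporters was −0.03. Abcc5, an exporter of organic anions, was the 1 member with all combination libraries below (−0.46), against 3.21% of all genes.

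Fc receptors and complement genes had a median of 0.09 over 15 members, 11 above 0 and 0 called. Fcgr1, the high-affinity IgG receptor, was at 4.68, 12.0 and 5.26 CPM against 10.1, 10.3 and 8.81 CPM, at 0.41 ± 0.482, which ran from 0.17 without mobocertinib library 1 to 0.95 without mobocertinib library 2. Fcgr4, the receptor that binds mouse IgG2 antibodies, was at 11.8, 27.8 and 21.9 CPM against 15.4, 14 and 26.8 CPM. C1qa, a complement component made by macrophages, was at 128, 144 and 127 CPM against 136, 147 and 147 CPM. The log2 fold change was 0.11 ± 0.595, in a fit whose standard errors draw on the spread in all 14 libraries.

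Interferon-induced genes had a median log2 fold change of 0.43, with 22 of 26 above 0 and 0 called, none of them at an unadjusted p below 0.05. The list level was −0.37, 0.30 and −0.76 with mobocertinib and 0.35, 0.19 and 0.28 with the combination, so mobocertinib library 2 lay within the combination range. The median was 0.77 without that library. Oasl2, an antiviral protein of this group, was at 20.2, 30.9 and 10.5 CPM against 46.8, 25.5 and 35.5 CPM, at 0.81 ± 0.473, and 0.48 without mobocertinib library 3. Isg15, a ubiquitin-like protein, was at 15.1, 14 and 3.73 CPM against 15.3, 14.2 and 22.2 CPM, at 0.66 ± 0.583, and 0.24 without mobocertinib library 3. Sting1, the adaptor of cytosolic DNA sensing, was at 27.9, 30.3 and 24.8 CPM against 57.7, 34.5 and 39.0 CPM, without overlap, at 0.66 ± 0.259.

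T cell and cytotoxic genes had low levels, summing to 16, 46.8 and 44.0 CPM with mobocertinib and to 58.3, 53.6 and 46.5 CPM with the combination over 22 genes tested. Their median log2 fold change was 0.64, with 18 above 0 and 0 called, and it was 0.21 without mobocertinib library 1, the lowest of the 6. Cd8a, the receptor chain of cytotoxic T cells, was at 0.498, 2.10 and 0.746 CPM against 1.18, 1.77 and 1.51 CPM, at 0.41 ± 1.02, which ran from 0.0621 without mobocertinib library 1 to 1.24 without mobocertinib library 2. Ccl5, a chemokine of activated T cells, was at 2.49, 4.65 and 2.38 CPM against 6.05, 9.14 and 8.22 CPM, without overlap, at 1.29 ± 0.696. Ncr1, a receptor of natural killer cells, was at most 0.216 CPM in the 6 libraries and had too few counts to be tested.

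Tigit, an inhibitory receptor of T and natural killer cells, was at 8.62, 3.58 and 5.40 CPM with mobocertinib and at 15, 13.4 and 25.4 CPM with the combination. The resulting log2 fold change was 1.61 ± 0.704 (95% interval 0.09 to 3.14), without overlap. Tigit was thus more abundant than Cd8a in every library of both groups. The checkpoint ligand gene Cd274 was at 6.77, 15.3 and 18.6 CPM against 10.7, 10 and 14 CPM, at −0.23 ± 0.459, and 14.1% of its exon bases are shared with a gene on the other strand. MHC class II genes had a median of 0.39 with 11 of 12 above 0, and 0.02 without mobocertinib library 1. MHC class I genes had a median of 0.04, and of 0.46 without mobocertinib library 2.

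Squamous and basal epithelial markers had the highest list median after the mast cell markers. Of 15 tested, 13 had a log2 fold change above 0, 0 were called, 4 were at an unadjusted p below 0.05 (1.46% of all genes) and 5 had all combination libraries above (3.49% of all genes). The median was 1.22, and it ran from 1.10 without mobocertinib library 3 to 2.20 without mobocertinib library 1. Summed over the list the level was 177, 156 and 44.4 CPM with mobocertinib and 384, 217 and 441 CPM with the combination. Sprr1b, a cornified envelope gene, was at 0 counts in all 6 libraries.

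Krt17, a keratin of basal and stressed epithelium (chr11:100256217-100261029, minus strand), was at 4.28, 4.43 and 1.60 CPM against 25.2, 5.20 and 45.6 CPM. The log2 fold change was 2.88 ± 1.01 (95% interval 0.69 to 5.07). Krt14, the partner keratin of basal cells, was at 9.22, 20.7 and 2.35 CPM against 43.0, 23.9 and 151 CPM, at 2.76 ± 1.0. Krt5, the other basal keratin, was at 35.1, 22.4 and 5.69 CPM against 83.7, 52.4 and 80.5 CPM, at 1.78 ± 0.983. Trp63, the transcription factor of basal cells, was at 8.07, 10.9 and 4.05 CPM against 27.5, 13.1 and 11.1 CPM, at 1.17 ± 0.857.

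These 4 genes did not overlap between the groups, yet combination library 2 lay just above the mobocertinib range for Krt14 and Krt17, as did combination library 3 for Trp63. Krt4, a keratin of stratified epithelium outside this list, was at 5.03, 2.84 and 2.67 CPM against 38.6, 8.86 and 22.7 CPM, at 2.74 ± 0.847 (95% interval 0.90 to 4.58). With T-DM1 alone, Krt4 was at 279, 25.8 and 214 CPM and Krt5 at 239, 45.9 and 318 CPM, with T-DM1 library 2 lowest in both. Sprr1a, a cornified envelope protein, was at 2.29, 7.82 and 4.48 CPM against 21.3, 11.2 and 20.6 CPM, at 1.86 ± 0.582.

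Markers of other cell types varied among the libraries in ways that moved with parts of this comparison, and their part in the results above was not tested. Heart and skeletal muscle genes had a median of −3.78, with 17 of 18 below 0 and 0 called. At an unadjusted p below 0.05 there were 4, against 1.46% of all genes. The list summed to 23.6, 180 and 1133 CPM with mobocertinib and to 74.4, 13.3 and 36.8 CPM with the combination. Myh6, the atrial and cardiac myosin, was at 2.19, 50.7 and 367 CPM against 26.1, 0.394 and 5.08 CPM. Mobocertinib library 3 held most of the muscle transcripts of the 6 libraries, and the median was −1.46 without library 3. Outside the comparison, Myh6 was at 178 CPM in T-DM1 library 1 and at 149 and 217 CPM in resistant libraries 2 and 3.

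The list of red blood cell and platelet genes had 7 of 10 tested members below 0, 0 called and 4 without overlap on the lower side, against 3.21% of all genes. These 4 were red cell genes, while the platelet genes Ppbp and Pf4, which code for chemokines of platelet granules, were at 1.49 and 0.39 with overlap. Hbb-bs, an adult beta-globin, was at 923, 788 and 837 CPM with mobocertinib and at 250, 238 and 611 CPM with the combination. Hbb-bt, the other adult beta-globin, was at 58.1, 78.5 and 66.3 CPM against 14.6, 31.7 and 31.2 CPM, at −1.39 ± 0.502, and 58.3% of its 50-base stretches occur in Hbb-bs. Alas2, the heme synthesis enzyme of red cell precursors, was at 20.9, 17.4 and 29.4 CPM against 10.4, 5.08 and 11.7 CPM. All 3 genes had no overlap, and the list median of −0.48 was −0.15 without mobocertinib library 1 and −1.13 without combination library 3.

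Alveolar type 2 markers, which lung adenocarcinoma cells also express, had a median of −0.42, with 0 of 18 above 0 and 0 called. The list level was −0.76, 0.43 and 0.85 with mobocertinib and −0.06, −0.27 and −0.19 with the combination, so the combination libraries lay between mobocertinib library 1 and mobocertinib libraries 2 and 3. Sftpc, surfactant protein C, was at 8829, 22217 and 23214 CPM against 10467, 13328 and 23922 CPM, at −0.19 ± 0.904. The median was −0.77 without mobocertinib library 1 and −0.12 without mobocertinib library 3.

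Ciliated cell markers had a median of −0.70 with 0 of 18 above 0 and 0 called, and none at an unadjusted p below 0.05. They summed to 167, 476 and 173 CPM with mobocertinib and to 210.5, 207 and 71.0 CPM with the combination. Without mobocertinib library 2 the median was −0.11. Scgb1a1, the secretory protein of club cells, was at 16584, 7042 and 14997 CPM against 9577, 13292 and 1189 CPM, with combination library 3 lowest. Its log2 fold change of −0.68 ± 0.750 was −0.19 without that library. Both airway cell types were thus low in combination library 3.

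Of the immune and stromal lists, neutrophil markers had a median of 0.50 with 15 of 17 above 0, and mast cell markers one of 1.23 with 7 of 10 above 0. Mcpt4, a mast cell protease, was at 1.30, 0.664 and 1.67 CPM against 1.99, 10.4 and 7.41 CPM. The mast cell median was 0.13 without combination library 3. Dendritic cell markers had a median of 0.55 with 10 of 15 above 0 and 5 below. Their summed level was nonetheless 870, 984 and 781 CPM with mobocertinib and 667, 878 and 670 CPM with the combination. Among them, Fscn1, an actin-bundling protein also made by tumor cells, was at 33.3, 19.0 and 14.6 CPM against 62.2, 38.8 and 71.6 CPM. Endothelial markers had a median of −0.28, smooth muscle markers −0.43, fibroblast genes 0.17, alveolar macrophage markers −0.39 and interstitial macrophage and monocyte markers 0.01. In none of these lists was a member called, and 1 library moved most of the medians. Without mobocertinib library 1 the median was 1.62 for neutrophils and 0.15 for dendritic cells. Without mobocertinib library 3 it was 0.12 for endothelial, 0.11 for smooth muscle and 0.04 for alveolar macrophage markers, and without combination library 1 it was −0.23 for fibroblast genes.

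Chil3, a chitinase-like protein of alveolar macrophages, was at 753, 1437 and 3259 CPM against 444, 698 and 628 CPM, without overlap, at −1.62 ± 0.793. Of 17 alveolar macrophage markers, 11 were below 0 and 6 above. Postn, a matrix protein of activated fibroblasts, was at 28.1, 28.0 and 38.8 CPM against 50.6, 45.1 and 71.6 CPM, at 0.82 ± 0.363. Of 24 fibroblast genes, 16 were above 0 and 8 below. In this list 2 had all combination libraries above and 1 had all below, against 3.49% and 3.21% of all genes. Tgfbi, a matrix protein induced by TGF-beta, was at 29.7, 36.9 and 43.0 CPM against 66.9, 54.1 and 84.0 CPM, at 0.90 ± 0.380. The 20 EMT genes, to which Tgfbi belongs, had a median of 0.25, with 14 above 0, and of 0.0868 without combination library 1.

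Most metabolic and stress lists had medians close to that of all genes, with those of ribosomal protein and of cholesterol and fatty acid synthesis genes lower. Oxidative phosphorylation genes had a median of −0.07 with all 23 intervals within 2-fold. Ribosomal protein genes had a median of −0.18 with 33 of 34 below 0 and 30 intervals within 2-fold, and that median was 0.02 without combination library 1, which held the least ribosomal protein RNA. Cholesterol and fatty acid synthesis genes had a median of −0.19 with 21 of 24 below 0, and of −0.01 without mobocertinib library 3. The median was 0.03 for glycolysis and hypoxia, 0.01 for the ATF4 and unfolded protein response, 0.05 for cytosolic heat shock and 0.01 for NRF2 targets, with 0 members called in each.

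**Figure D4:**
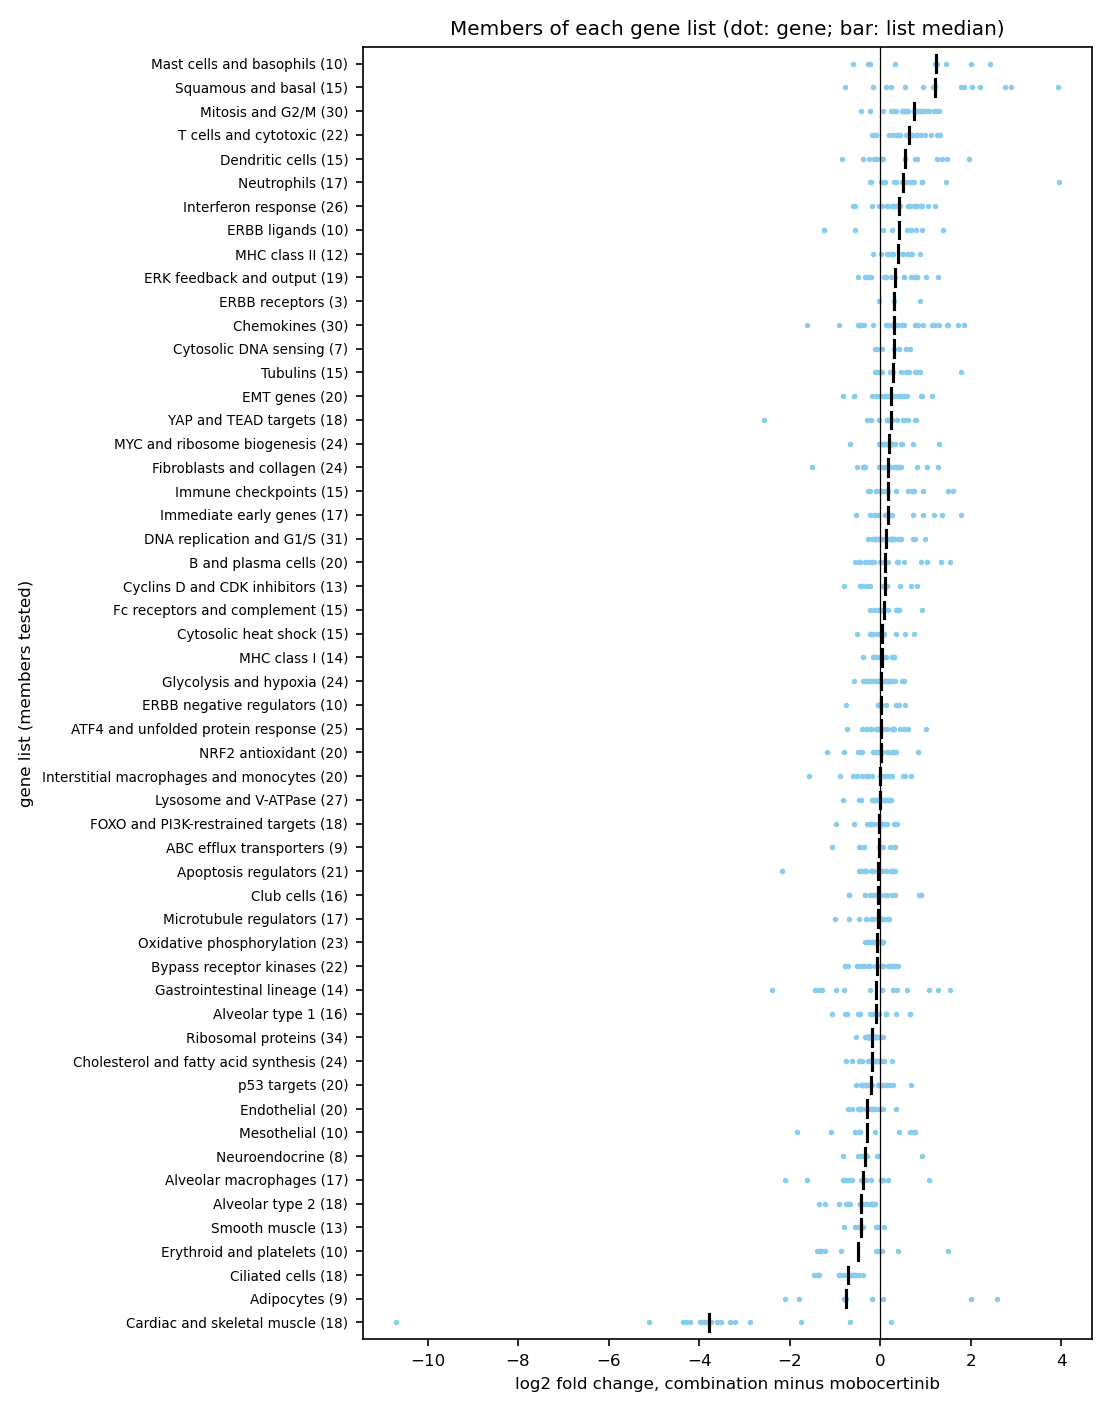
Log2 fold change (combination minus mobocertinib) of the tested members of 54 gene lists, each dot a gene and each black bar the list median, with the number of members tested in brackets. Medians run from −3.78 for muscle markers to 1.23 for mast cell markers, and most lie within 0.5 of 0.

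Beyond the lists, the genes with the smallest unadjusted p among those whose groups did not overlap were taken, 10 in each direction, to show what the largest separations looked like. None of them passed the test. With the combination above, they were Tubb2b, Krt4, Sprr1a, Tns4, Tubb4b, Apcdd1, Nid2, Slc7a1, Krt17 and Sorbs2. Tns4, a focal adhesion protein raised in many epithelial tumors, was at 14.8, 10.4 and 11.2 CPM against 46.8, 16.1 and 62.4 CPM, at 1.79 ± 0.568. Slc7a1, a transporter of arginine and lysine, was at 16.8, 12.6 and 13.3 CPM against 26.4, 18.5 and 26.2 CPM, at 0.73 ± 0.254.

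Apcdd1, an inhibitor of WNT signaling, was at 9.36, 6.83 and 7.50 CPM against 18.5, 11.6 and 17.2 CPM, at 1.0 ± 0.336. Sorbs2, an adaptor of the actin cytoskeleton, was at 11.1, 9.23 and 9.88 CPM against 20.9, 21.1 and 24.9 CPM, at 1.15 ± 0.408. Nid2, a basement membrane protein, was at 6.08, 4.32 and 4.69 CPM against 7.19, 8.35 and 17.6 CPM, at 1.14 ± 0.389. The value of Nid2 was 0.61 without combination library 3, so that library decided much of it.

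With the combination below, they were Setdb2, Slc43a2, Hbb-bt, Eno3, Mturn, Fkbp1b, Atp7b, Mgll, Neat1 and Mmp19. Setdb2, a histone methyltransferase relative (chr14:59402009-59440884, minus strand), was at 10.5, 27.6 and 19.7 CPM with mobocertinib and at 6.58, 5.24 and 7.59 CPM with the combination. Its log2 fold change was −1.58 ± 0.393 (95% interval −2.43 to −0.73), with an unadjusted edgeR p of 0.00152. The T-DM1 libraries were at 6.11, 4.95 and 6.29 CPM and the vehicle libraries at 4.14 and 5.50 CPM. The resistant nodules gave 5.35, 12.5 and 8.90 CPM, so all mobocertinib libraries lay above T-DM1 and vehicle but library 1 lay below 1 resistant library.

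Atp7b, a copper exporter, was at 234, 134 and 220 CPM against 91.3, 107 and 128 CPM, at −0.85 ± 0.324. The T-DM1 libraries held 30.7, 38.2 and 35.5 CPM of Atp7b and the vehicle libraries 18.6 and 21.3 CPM, below all 6 compared libraries. Neat1, a long nuclear RNA that builds paraspeckles, was at 440, 866 and 470 CPM against 167, 356 and 256 CPM, at −1.19 ± 0.461, and −0.82 without mobocertinib library 2. Fkbp1b, a regulator of calcium release channels, was at 4.88, 7.71 and 6.43 CPM against 2.92, 3.27 and 4.05 CPM, at −0.89 ± 0.336.

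Of the rest, Slc43a2, Eno3, Mturn and Mgll had log2 fold changes that shrank by over 1.5 times without 1 mobocertinib library. Slc43a2, an amino acid transporter, was at 68.4, 227 and 92.2 CPM against 66.9, 48.6 and 62.4 CPM, and its log2 fold change of −1.12 ± 0.402 was −0.45 without mobocertinib library 2. Eno3, the muscle enolase, was at 4.43, 9.04 and 24.1 CPM against 3.73, 3.43 and 3.76 CPM, and −1.78 ± 0.648 was −0.89 without mobocertinib library 3. Mturn, a neural differentiation factor, and Mgll, a lipase of monoacylglycerols, were at −0.92 ± 0.343 and −0.85 ± 0.325, or −0.41 and −0.40 without mobocertinib library 3. Mmp19, a matrix protease, was at 26.4, 15.2 and 39.2 CPM against 13.8, 5.28 and 13.9 CPM, at −1.29 ± 0.531. It shares 28.3% of its exon bases with genes on the other strand, and without mobocertinib library 3 its value was −0.93.

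**Figure D5:**
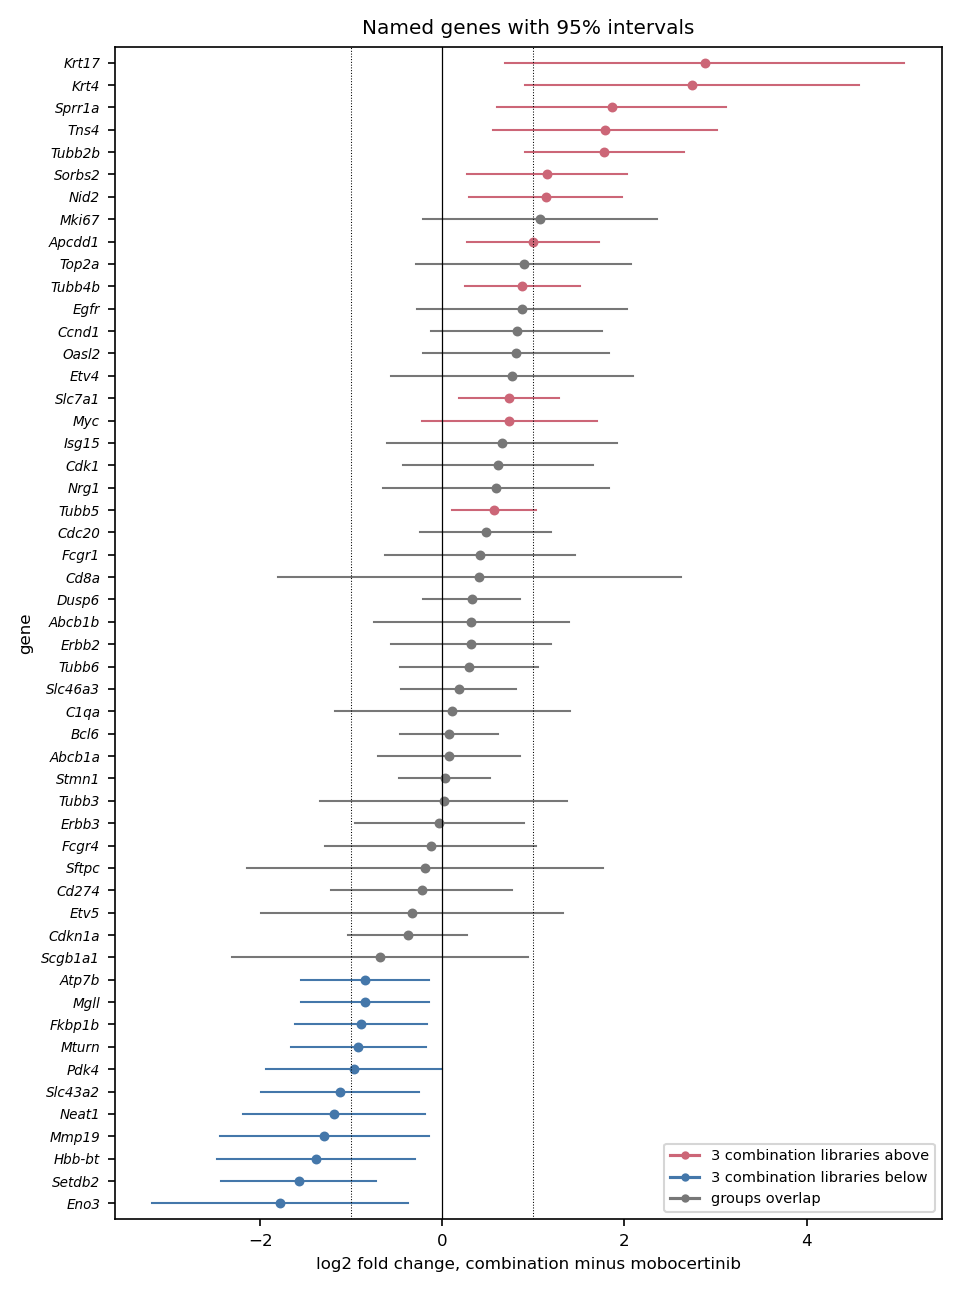
Log2 fold change (combination minus mobocertinib) with 95% intervals for the 20 genes of smallest p and the panel of genes given whatever their p, colored by whether the 3 combination libraries lie above, below or among the 3 mobocertinib libraries. Dotted lines mark 2-fold, and most panel genes have intervals that hold both 0 and a 2-fold difference.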

How the data were processed

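The counts per gene were made by the authors and deposited as 1 table of whole numbers for 14 libraries, with a matching deposited table of TPM values, which are scaled to transcript length and library size. The submitters' processing notes name STAR, RSEM and mm10 with no roles. Versions, annotation and strand: not given in the sources used here. Of 55291 genes, 17933 passed edgeR's filterByExpr and were tested.

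edgeR 4.0.16 in R 4.3.3 was fitted to all 14 libraries with a mean per group (TMM factors, robust quasi-likelihood F test, Benjamini-Hochberg adjusted p below 0.05). Standard errors and 95% intervals came from that test. limma 3.58.1, DESeq2 1.42.0, other scalings, other filters, TPM fits and leaving out each library were alternatives. The fit was checked on simulated data. For the level of a list, each member's log2 CPM (prior count 2) was centered on its mean in the 6 libraries, then averaged.

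The comparison, the gene lists and the tests were chosen with earlier results of these data known. Named genes were the called ones, filled in each direction to 10 by smallest unadjusted p (mean log2 CPM of at least 1, no overlap, no predicted genes or pseudogenes), with a set panel. Other genes were named after their values were seen, as examples of their lists. Gene positions and transcripts are from GENCODE M21, and promoter sequence from RefSeq (GRCm38.p6).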

Additional observations from a re-analysis of the deposited data

How the results depend on the processing

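The count of 0 genes called in edgeR's quasi-likelihood test was also 0 with upper-quartile or median-ratio (RLE) scaling, either other count filter, a non-robust fit, a test against a 1.5-fold change, limma-voom, limma on TPM, the 6 libraries alone, no vehicle, and without each library in turn. DESeq2 called 1 gene in all and 1 lower, AA465934. Genes at an unadjusted p below 0.05 numbered 262 in the reported test and 155 (without mobocertinib library 3) to 406 (without mobocertinib library 1) as each library was left out. Over the other alternatives they numbered 137 (against a 1.5-fold change) to 552 (unfiltered TPM), with 422 for unfiltered counts and 473 for the 6 libraries alone. Log2 fold changes near 0 changed sign for some genes. Tubb3 was −0.0163 with upper-quartile, −0.0033 with median-ratio, −0.0838 with limma-voom and −0.00437 with DESeq2, and Stmn1 was −0.0014 with upper-quartile scaling. On log2(TPM + 1), filtered or not, Erbb3 was 0.0741, Etv5 0.0224, Abcb1b −0.0550 and Fcgr4 0.00626, and on log2(TPM + 0.1) they were 0.0759, 0.0597, −0.0717 and 0.0109. The cause was not tested.

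Leaving out 1 library moved these log2 fold changes across 0: Erbb2 −0.00433 to 0.51, Erbb3 −0.21 to 0.22, Etv5 −0.76 to 0.0398, Tubb3 −0.35 to 0.34, Stmn1 −0.0597 to 0.14, Slc46a3 −0.18 to 0.46, Abcb1a −0.19 to 0.52, Abcb1b −0.23 to 0.56, Fcgr4 −0.50 to 0.15, Cd274 −0.55 to 0.0689, Sftpc −0.62 to 0.0425 and Bcl6 −0.0489 to 0.19. No paired analysis was possible because the replicate numbers follow accession order only. A fit with sex as a term was not run, because the 6 compared libraries showed 1 sex by their Y-linked and Xist transcripts. Their Xist level was at most 2.59 CPM. Other libraries in the fit differed, with Xist at 217, 523 and 63.8 CPM in the resistant libraries. In T-DM1 libraries 1 and 2 it was at 44.1 and 21.3 CPM. The effect of this on the standard errors, and on values set beside those groups, was not tested. The median standard error of 0.43 came from the fit to all 14 libraries, with 3 in each compared group. A 2-fold difference in at least 1 direction lay inside the 95% interval for all but 42.8% of genes.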

Other observations

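AA465934, a processed transcript without a coding sequence (chr11:83291699-83294632, plus strand, GRCm38), lay outside the naming rule and was picked after its values were seen. It was at 12.6, 10.1 and 7.75 CPM with mobocertinib and at 0.487, 1.02 and 1.4 CPM with the combination. Every combination library was below every mobocertinib library, with a log2 fold change of −3.38 ± 0.715 (95% interval −4.92 to −1.83). It ran from −3.75 to −3.06 as each library was left out. The adjusted p was 1 in edgeR and 0.00616 in DESeq2. T-DM1 alone gave 0.848, 1.30 and 3.97 CPM and vehicle 10.4 and 5.35 CPM. The nodules resistant to mobocertinib gave 5.35, 1.2 and 2.47 CPM, and of these only 1.2 lay within the combination range. The cause of the low values was not tested.

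On chromosome 14, Setdb2 lies between a pair of genes whose combination libraries were also all below, again seen in the data first. Phf11c (chr14:59380833-59395381, minus strand) was at 2.09, 5.54 and 1.67 CPM with mobocertinib and at 0.447, 0.669 and 0.995 CPM with the combination. Its log2 fold change of −2.13 ± 0.607 was −1.42 without mobocertinib library 2 and −0.68 on the log2(TPM + 1) scale without a filter, which understates low genes. Cab39l (chr14:59440972-59585764, plus strand), which codes for a scaffold protein of the LKB1 kinase, was at 144, 216 and 108 CPM against 99.8, 89.5 and 93.4 CPM. Its log2 fold change of −0.73 ± 0.309 was −0.44 without mobocertinib library 2, which was the highest library for all 3 genes. Rcbtb1, farther along the same stretch, was at 29.7, 30.9 and 33.1 CPM against 30.6, 32.0 and 29.6 CPM, and Phf11d and Phf11b had values of 0.36 and 0.69.

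Setdb2 and Cab39l start on opposite strands 87 bases apart. The bases between them (chr14:59440885-59440971, plus strand, RefSeq, GRCm38.p6) are shown because both genes were below, with CCAAT or its reverse complement ATTGG in capitals.

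Setdb2 to Cab39l: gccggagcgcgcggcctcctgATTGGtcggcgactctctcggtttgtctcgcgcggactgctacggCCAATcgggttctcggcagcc

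Searching both strands found 2 matches. Of 32851 windows of the same length before gene starts, 16.8% held at least 1 match and 2.75% at least 2. A match describes these letters and no binding was measured.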
